A study of Mus musculus with 18 samples.

Results

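The comparison described here is the difference between the Ebi3 knockout effect in CD4 T cells and that in CD8 T cells: the log2 ratio of knockout (KO) to wild-type (WT) expression in CD4 cells minus the same log2 ratio in CD8 cells, called the interaction below. It was taken over every gene that could be tested in the 12 CD4 and CD8 libraries, out of 18 libraries in the series, with 3 libraries in each of 4 groups. The groups were CD4 KO, CD4 WT, CD8 KO and CD8 WT cells from mouse spleen. A positive interaction means that KO stood higher relative to WT in CD4 than in CD8, and it can come from CD4, from CD8 or from both, so both ratios are given beside it. The KO mice were Foxp3 YFP/cre and Ebi3 -/-, and the WT mice were Foxp3 YFP/cre with no Ebi3 deletion named, so that every group carried the allele from which Foxp3, the gene of regulatory T cells, drives YFP and Cre. After sorting, the cells had 72 h on plate-bound anti-CD3 at 2 µg/ml with anti-CD28 at 2 µg/ml and IL-2 at 10 ng/ml, and 500 ng of RNA per sample went into 3' tag libraries with unique molecular identifiers (UMIs). The labels give no age, do not say which part of Ebi3 was deleted, whether CD4 cells were sorted free of regulatory cells, or whether replicates were separate animals, so p-values reflect the scatter among these libraries only, which may be technical.

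Ebi3 encodes a soluble subunit that resembles a cytokine receptor. With the p28 subunit, encoded by Il27, it forms IL-27, which signals through IL27RA and gp130 to STAT3 and related factors, and with the IL-12 p35 subunit it forms IL-35, described as a product of regulatory T and B cells. In T cells IL-27 is known for inducing Il10 and Tbx21, and CD4 and CD8 cells both carry its receptor. Activated T cells grow and divide under signals from the T cell receptor, CD28 and IL-2, and the last of these acts through JAK1, JAK3 and STAT5.

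The 12 libraries held 1358671 to 2255950 counts each, and 3 counts, taken as the detection floor, corresponded to 1.36 to 2.24 CPM (counts scaled to a common library size, after correction by the trimmed mean of M-values, TMM). Floors and intervals on counts cover counting error only. Of 55487 genes in the table, 24381 had a count in these libraries and 11276 were tested. Lineage genes followed the labels: Cd8a, a chain of the CD8 coreceptor, had 146 to 251 CPM in CD8 libraries and at most 1.73 CPM in CD4 libraries, and Cd4 had 103 to 163 CPM in CD4 libraries and at most 0.518 CPM in CD8 libraries. Foxp3, the defining factor of regulatory T cells, had 0 or 1 count in every library and was not tested. Cd8b1, the other coreceptor chain, had an interaction of 0.76 ± 0.48 (SE) and Zbtb7b, the factor that commits cells to the CD4 lineage, one of 0.17 ± 0.23. In bulk samples such as these, fewer cells of a type and less RNA per cell cannot be told apart.

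Ebi3 itself (ENSMUSG00000003206, chr17:55952640-55957022 on the plus strand of GRCm38) was lower in KO than in WT in the CD4 libraries and about level in the CD8 libraries. Its level was 21.4, 26.9 and 23.2 CPM in CD4 KO, against 61.9, 40.2 and 40.4 CPM in CD4 WT. It was 28.1, 24.7 and 34.6 CPM in CD8 KO, against 29.8, 28.5 and 30.3 CPM in CD8 WT. The 3 CD4 KO libraries lay below the 3 CD4 WT libraries, while the CD8 KO values spread on both sides of the CD8 WT values. The log2 ratio of KO to WT was -0.98 in CD4 and -0.02 in CD8, an interaction of -0.96 ± 0.27 (SE; 95% interval -1.53 to -0.39) with an unadjusted p of 0.00214 and an adjusted p of 0.20 in edgeR's quasi-likelihood test with Benjamini-Hochberg adjustment. An exact two-sided permutation test of log2(CPM + 1), with genotype labels permuted within each cell type (400 arrangements), gave an interaction of -0.91 and p = 0.065, where 0.005 is the smallest p it can give. Permuting in this way is exact where genotype has no effect in either cell type, a stricter condition than equal effects in both. Ebi3 tags were counted in every KO library, and a 3' tag outside the deleted stretch would not register the deletion, so these counts do not check the genotype labels. Among the 7 tested genes for EBI3 cytokine subunits and receptors of 13 listed, 4 had a positive and 3 a negative interaction, with a median of 0.36 that was -0.09 without CD4 KO replicate 1. Members with an unadjusted p below 0.05 were Ebi3 and Il6st, the gp130 receptor chain (-0.74 ± 0.29, and 0.063 with the hemoglobin level of each library as a covariate, a fit described below). With that covariate the Ebi3 interaction was -0.42 ± 0.30, at an unadjusted p of 0.17 in edgeR's quasi-likelihood test.

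**Figure D1:**
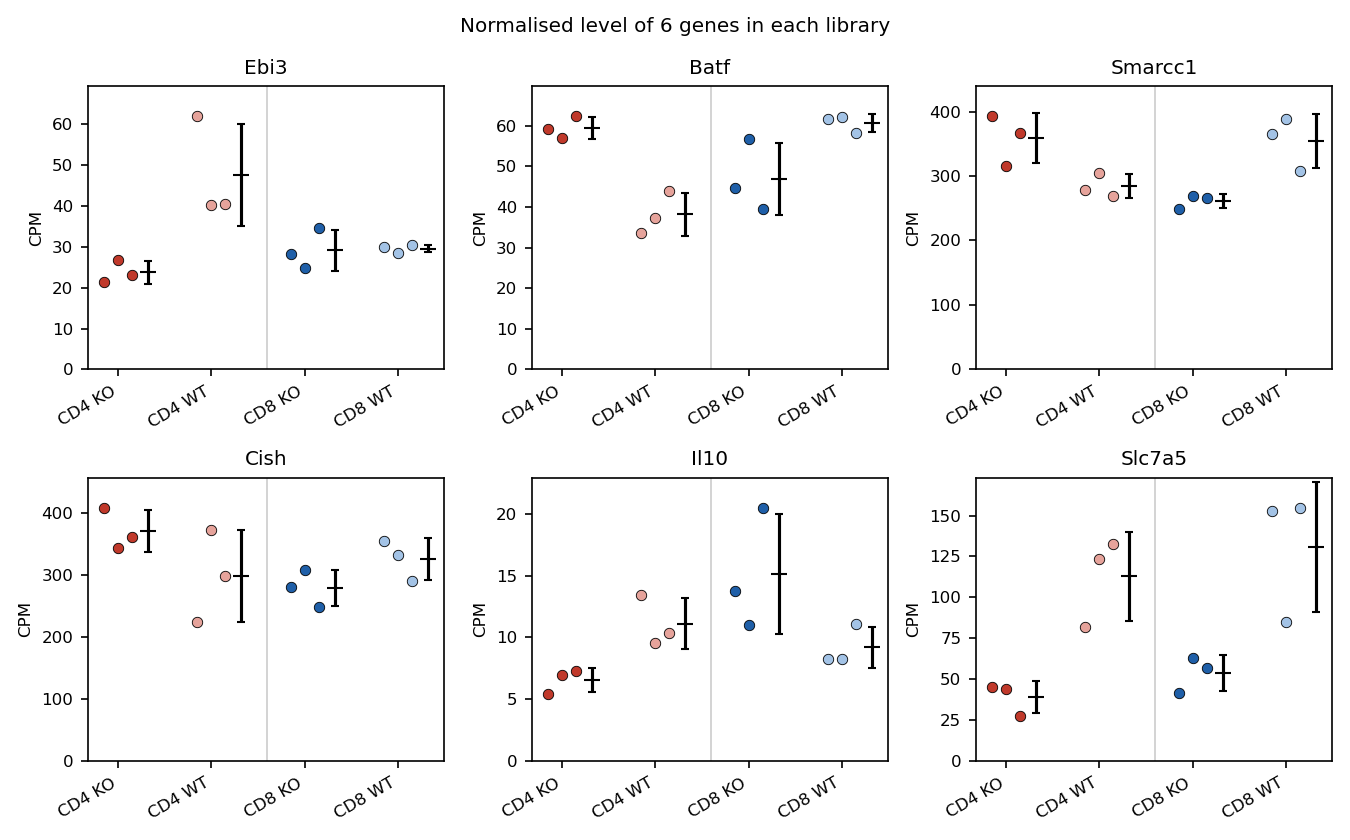
Normalised level (CPM, linear axes from 0) of Ebi3, Batf, Smarcc1, Cish, Il10 and Slc7a5 in each library; filled points are single libraries of CD4 KO, CD4 WT, CD8 KO and CD8 WT, and the black mark with its bar is the mean ± SD of 3 libraries. Batf and Smarcc1 separate KO from WT in opposite directions in the 2 cell types, Ebi3 in CD4 alone, and Slc7a5 in the same direction in both.

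Across all genes, none passed an adjusted p of 0.05 for the interaction (0%, 0 of 11276 in edgeR's quasi-likelihood test). DESeq2 called 5 genes, of which Smarcc1 was positive and Plac8 and the predicted genes Gm5045, Gm14173 and Gm22758, named after their values were seen, were negative. Calls in edgeR numbered 507 of 24381 genes with no filter on low counts, 409 without the library of highest B cell markers in each group (an alternative chosen after seeing the data) and 175 without CD8 WT replicate 3. At an unadjusted p below 0.05 there were 1828 genes (16.2%), of which 874 (7.75%) were positive and 954 (8.46%) negative, where 564 would be expected if no gene differed. The lowest adjusted p was 0.20, shared by 337 genes, so every gene and gene group below is described by its values and read against these shares, and no single gene is called. The median interaction was 0.00 on the log2 scale, and the median absolute size was 0.28, against 0.15 for the KO-WT difference in CD4 and 0.19 for that in CD8.

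The 2 KO-WT differences tended to run in opposite directions. Of all genes tested, 62.0% had opposite signs in CD4 and CD8. Across 8068 genes whose mean log2 CPM was at least 4 the CD4 and CD8 differences had a Pearson r of -0.39 and a Spearman rho of -0.39, a description across genes, which are not independent replicates. The 2 differences share no library. Within CD4 the unadjusted p for KO against WT was below 0.05 for 648 genes (5.75%), and within CD8 for 1689 genes (15%). Of the 1828 genes with an unadjusted interaction p below 0.05, which were chosen by the size of the difference and so favour opposite signs, 898 (49.1%) passed that unadjusted threshold in CD8 alone, 286 (15.6%) in CD4 alone, 135 (7.39%) in both with opposite signs and 509 (27.8%) in neither. Both-sided genes with opposite signs divided into 60 that were higher in CD4 KO and 75 that were lower. Both-sided genes of the same sign numbered 21, of which 7 were higher and 14 lower in KO.

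**Figure D2:**
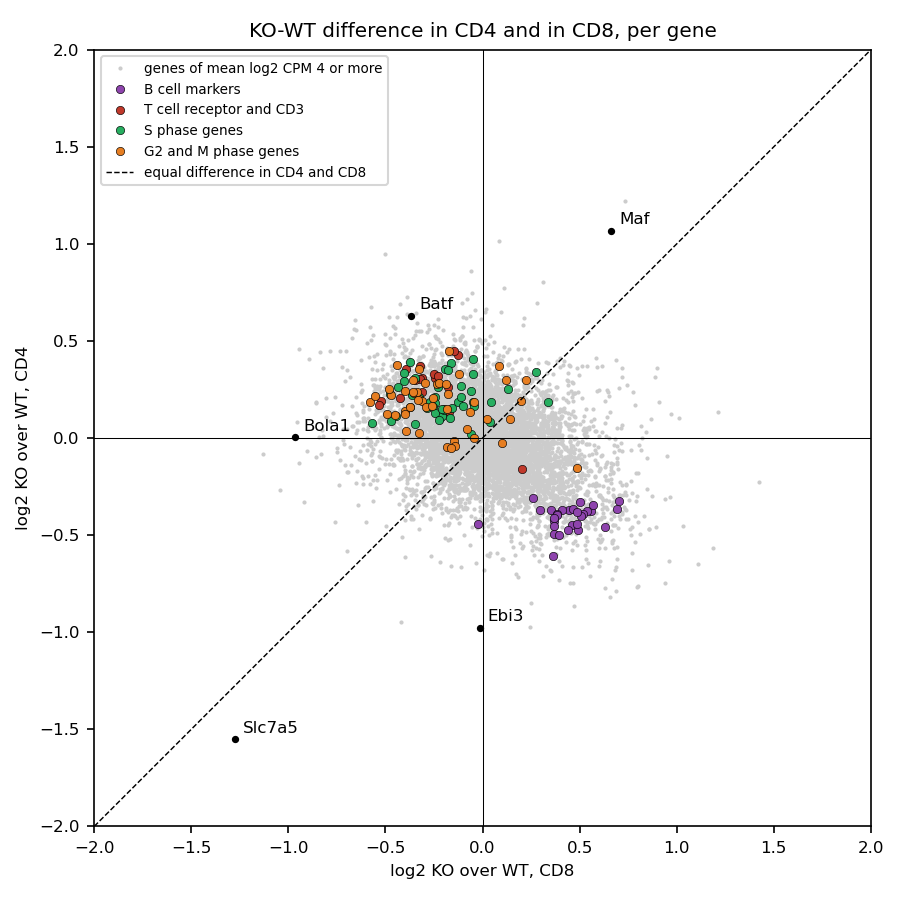
Log2 ratio of KO to WT in CD4 (vertical) against that in CD8 (horizontal) for the 8068 genes whose mean log2 CPM was at least 4 (grey); coloured points are members of 4 gene lists and black points are single genes, and the dashed line marks equal differences. B cell markers lie at the lower right, T cell receptor, S phase and G2 and M phase genes mostly at the upper left, and Slc7a5 and Maf in the corners where both differences have the same sign.

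Genes that mark cells other than T cells mostly had negative interactions. All 32 B cell markers tested, of 32 listed, were negative, with a median interaction of -0.87 (median log2 KO over WT -0.39 in CD4 and 0.44 in CD8). Of these, 27 had an unadjusted p below 0.05, against 8.46% of all genes in that direction. Ighm, the heavy chain of IgM, had 1758, 2441 and 1903 CPM in CD4 KO, against 3430, 2011 and 2474 CPM in CD4 WT. In CD8, Ighm had 2622, 2287 and 3162 CPM in KO, against 1486, 1615 and 2466 CPM in WT. Its groups overlapped in both cell types, with CD4 WT replicate 1 and CD8 KO replicate 3 the highest of their groups, and its interaction was -0.91 ± 0.30. Fcrla, a B cell Fc receptor-like protein (-1.09 ± 0.33), Jchain, which links secreted immunoglobulins (-1.06 ± 0.34), and H2-DMb2, an MHC class II peptide exchanger (-0.93 ± 0.30), followed.

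Erythroid and platelet markers gave the same picture: 8 of 21 listed were tested, all 8 were negative with a median of -0.88, and 5 had an unadjusted p below 0.05. Alas2, the first enzyme of heme synthesis in red cells (-1.37 ± 0.45), and the globin genes Hba-a2 (-1.16 ± 0.33), Hba-a1 (-1.002 ± 0.32) and Hbb-bs (-0.83 ± 0.31) were among them. Hba-a1 and Hba-a2 are near-identical copies whose counts the authors' counting could have split. Of myeloid and dendritic cell markers, 9 of 34 listed were tested, 2 positive and 7 negative with a median of -0.74 (-0.43 without CD4 WT replicate 1). Among them were Ctss, a cathepsin of antigen presenting cells (-0.88 ± 0.25), and Cd68, a lysosomal protein of macrophages (-0.74 ± 0.35). Cd209a and Elane had no count in any of the 12 libraries. Of NK and innate-like T cell markers, 3 of 17 listed were tested, 1 positive and 2 negative with a median of -0.72, a value that lay between -0.90 and 0.11 when single libraries were left out, and none had an unadjusted p below 0.05.

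The levels of these markers differed between libraries of 1 group as well as between groups. B cell markers summed to 9992, 13319 and 10694 CPM in CD4 KO, against 19885, 11210 and 13710 CPM in CD4 WT. In CD8 they summed to 14086, 12500 and 16923 CPM in KO, against 8283, 10055 and 13954 CPM in WT. In both cell types the KO and WT sums overlapped. The summed hemoglobin genes ran alongside, with 775 to 1015 CPM in CD4 KO, 880 to 1533 CPM in CD4 WT, 1001 to 1493 CPM in CD8 KO and 640 to 1064 CPM in CD8 WT, a log2 interaction of -0.94. Summed erythroid and platelet markers lay between 820 and 1066 CPM in CD4 KO, 926 and 1598 CPM in CD4 WT, 1055 and 1557 CPM in CD8 KO, and 689 and 1121 CPM in CD8 WT. Summed myeloid and dendritic cell markers lay between 532 and 643 CPM in CD4 KO, 617 and 892 CPM in CD4 WT, 604 and 854 CPM in CD8 KO, and 453 and 658 CPM in CD8 WT. CD4 WT replicate 1 and CD8 KO replicate 3 were the highest library of their group in each of these sums.

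T cell receptor and CD3 genes had the opposite sign: 18 of 19 tested were positive with a median of 0.58 (0.30 in CD4 and -0.25 in CD8), and 12 positive members had an unadjusted p below 0.05, against 7.75% of all genes. Trbc2, a constant region of the receptor's beta chain, had 592, 521 and 607 CPM in CD4 KO, against 385, 517 and 486 CPM in CD4 WT. In CD8, Trbc2 had 480, 576 and 450.2 CPM in KO, against 681, 688 and 502 CPM in WT. Its CD4 KO libraries all lay above the CD4 WT libraries, while the CD8 groups overlapped, and its interaction was 0.62 ± 0.19. Trbc1, the other beta constant region (0.71 ± 0.26), Thy1, a surface protein of T cells (0.63 ± 0.21), and Lck, the kinase that starts receptor signalling (0.55 ± 0.18), were also positive. The summed list was lowest in CD8 KO replicate 3 (4024 CPM) and CD4 WT replicate 1 (4061 CPM), the 2 libraries with the highest summed B cell marker CPM.

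Because these sums moved with the comparison, 2 further fits stand beside the gene groups: one with the log2 hemoglobin level of each library as a covariate, and one without the library of highest summed B cell markers in each group (CD4 KO replicate 2, CD4 WT replicate 1, CD8 KO replicate 3 and CD8 WT replicate 3), chosen after seeing the data. With the covariate the median interaction was 0.04 for B cell markers, -0.21 for erythroid and platelet markers and 0.02 for T cell receptor and CD3 genes. On the remaining 8 libraries it was -0.86, -0.84 and 0.39. The part of other cells in the interaction was not tested beyond these values, and cell content and genotype effect cannot be told apart from counts alone.

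**Figure D3:**
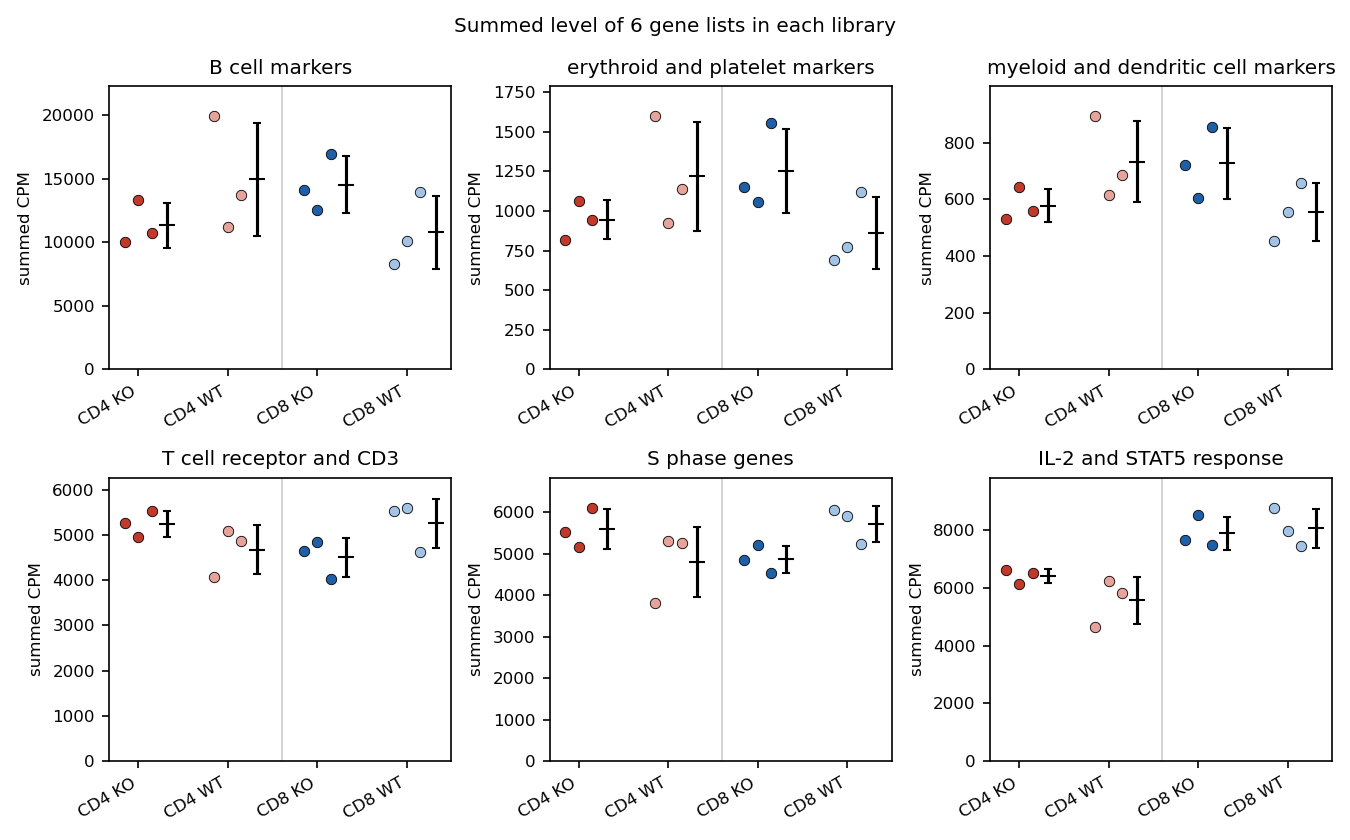
Summed CPM of 6 gene lists in each library (points, linear axes from 0) with mean ± SD of 3 libraries, ordered CD4 KO, CD4 WT, CD8 KO, CD8 WT. B cell, erythroid and myeloid sums have lower means in KO than in WT in CD4 and higher means in KO than in WT in CD8, and the T cell receptor and S phase sums the reverse.

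Genes of growth and division mostly had positive interactions, with list medians of KO above WT in CD4 and below WT in CD8. Of 44 S phase genes tested, 43 were positive with a median of 0.42 (0.19 in CD4, where all 44 were higher in KO, and -0.21 in CD8, where 39 were lower), and 16 positive members had an unadjusted p below 0.05. Lig1, the ligase that joins Okazaki fragments, had 754, 587 and 758 CPM in CD4 KO, against 525, 658 and 609 CPM in CD4 WT. In CD8, Lig1 had 522, 579 and 439 CPM in KO, against 756, 789 and 594 CPM in WT. The 3 CD8 KO libraries lay below the 3 CD8 WT libraries and the CD4 groups overlapped, for an interaction of 0.70 ± 0.18. Tk1, which salvages thymidine (0.70 ± 0.21), Mcm10, an initiation factor of replication (0.70 ± 0.22), and Rpa2, a subunit of the protein that coats single-stranded DNA (0.65 ± 0.16), were also positive.

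Of 48 G2 and M phase genes, 44 were positive with a median of 0.46, and 17 positive members had an unadjusted p below 0.05. Top2a, which untangles replicated chromosomes, had 1356, 1177 and 1363 CPM in CD4 KO, against 928, 1232 and 1034 CPM in CD4 WT. In CD8, Top2a had 892, 969 and 719.9 CPM in KO, against 1147, 1112 and 905 CPM in WT. Its KO and WT libraries overlapped in both cell types, at an interaction of 0.58 ± 0.17. Plk1, the mitotic kinase (0.69 ± 0.21), Kif20b, a kinesin of cytokinesis (0.77 ± 0.24), and Ncapd2, a condensin subunit (0.54 ± 0.17), were the other members of lowest p. With the hemoglobin covariate the medians were 0.12 for S phase and -0.09 for G2 and M phase genes, and without the 4 libraries highest in B cell markers they were 0.36 and 0.41.

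Biosynthesis and energy genes showed the pattern unevenly. Glycolysis and hypoxia genes were positive in 30 of 34, with a median of 0.37 and 16 positive members at an unadjusted p below 0.05. They included Slc2a3, a glucose transporter (0.92 ± 0.24), Bnip3, a hypoxia-induced mitophagy receptor (0.93 ± 0.30), and the phosphofructokinases Pfkl (0.82 ± 0.24) and Pfkp (0.57 ± 0.19). Sterol and fatty acid synthesis genes were positive in 28 of 34 with a median of 0.38 and 11 positive members below that p. Among them were Elovl6, a fatty acid elongase (0.92 ± 0.27), Acat2 (0.95 ± 0.30) and Lss, which closes the sterol ring system (0.65 ± 0.22). Nucleolar ribosome biogenesis genes were positive in 35 of 40 with a median of 0.31 and 13 below that p, including Nop14, a processing factor of the small subunit (0.68 ± 0.20), Dkc1, the pseudouridine synthase dyskerin (0.45 ± 0.14), and Ncl, nucleolin (0.43 ± 0.13). All 20 aminoacyl-tRNA synthetases were positive with a median of 0.27, and 5 passed that p, such as Yars (0.70 ± 0.22) and Eprs (0.55 ± 0.16). With the hemoglobin covariate these 4 medians were 0.08, -0.11, 0.07 and 0.04.

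Smaller positive medians came from genes of amino acid supply and the integrated stress response (0.28, 29 of 35 positive), mitochondrial ribosomal proteins (0.25, 60 of 76), the spliceosome core (0.24, 28 of 40), the chaperonins CCT and HSP60 (0.23, 7 of 9) and the proteasome (0.22, 27 of 35). The last 2 of these and the mitochondrial ribosomal proteins had medians of 0.14, 0.08 and 0.15 without CD4 WT replicate 1, and amino acid supply genes one of 0.17 without CD8 KO replicate 3. With the hemoglobin covariate the 5 medians lay between -0.10 and 0.02. Positive members of the 5 lists with an unadjusted p below 0.05 numbered 5, 13, 9, 3 and 5, against 7.75% of all genes. The amino acid, spliceosome and proteasome lists each had 1 negative member below that p as well. In either direction such members made up 17.1%, 17.1%, 25%, 33.3% and 17.1% of genes tested, against 16.2% of all genes. Amino acid supply, mitochondrial ribosomal and proteasome lists were thus near the share of all genes. Named by lowest p were Psat1, an enzyme of serine synthesis (0.67 ± 0.23), Chac1, which degrades glutathione (1.08 ± 0.38), Mrps15 (0.68 ± 0.21), Snrpd3, a core protein of spliceosomal particles (0.56 ± 0.18), and the proteasome subunits Psmc1 (0.75 ± 0.19) and Psmd4 (0.54 ± 0.16). Oxidative phosphorylation genes had a median of 0.05 with 29 of 52 positive, and mitochondrially encoded genes one of 0.10 with 5 of 8 positive. Cytosolic ribosomal protein genes ran the other way, with 62 of 81 negative, a median of -0.18 (0.01 in CD4 and 0.19 in CD8; -0.11 without CD8 WT replicate 2) and 16 negative members below that p, such as Rps27 (-0.58 ± 0.15). Many of these genes have processed pseudogenes with which their counts could be shared.

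**Figure D4:**
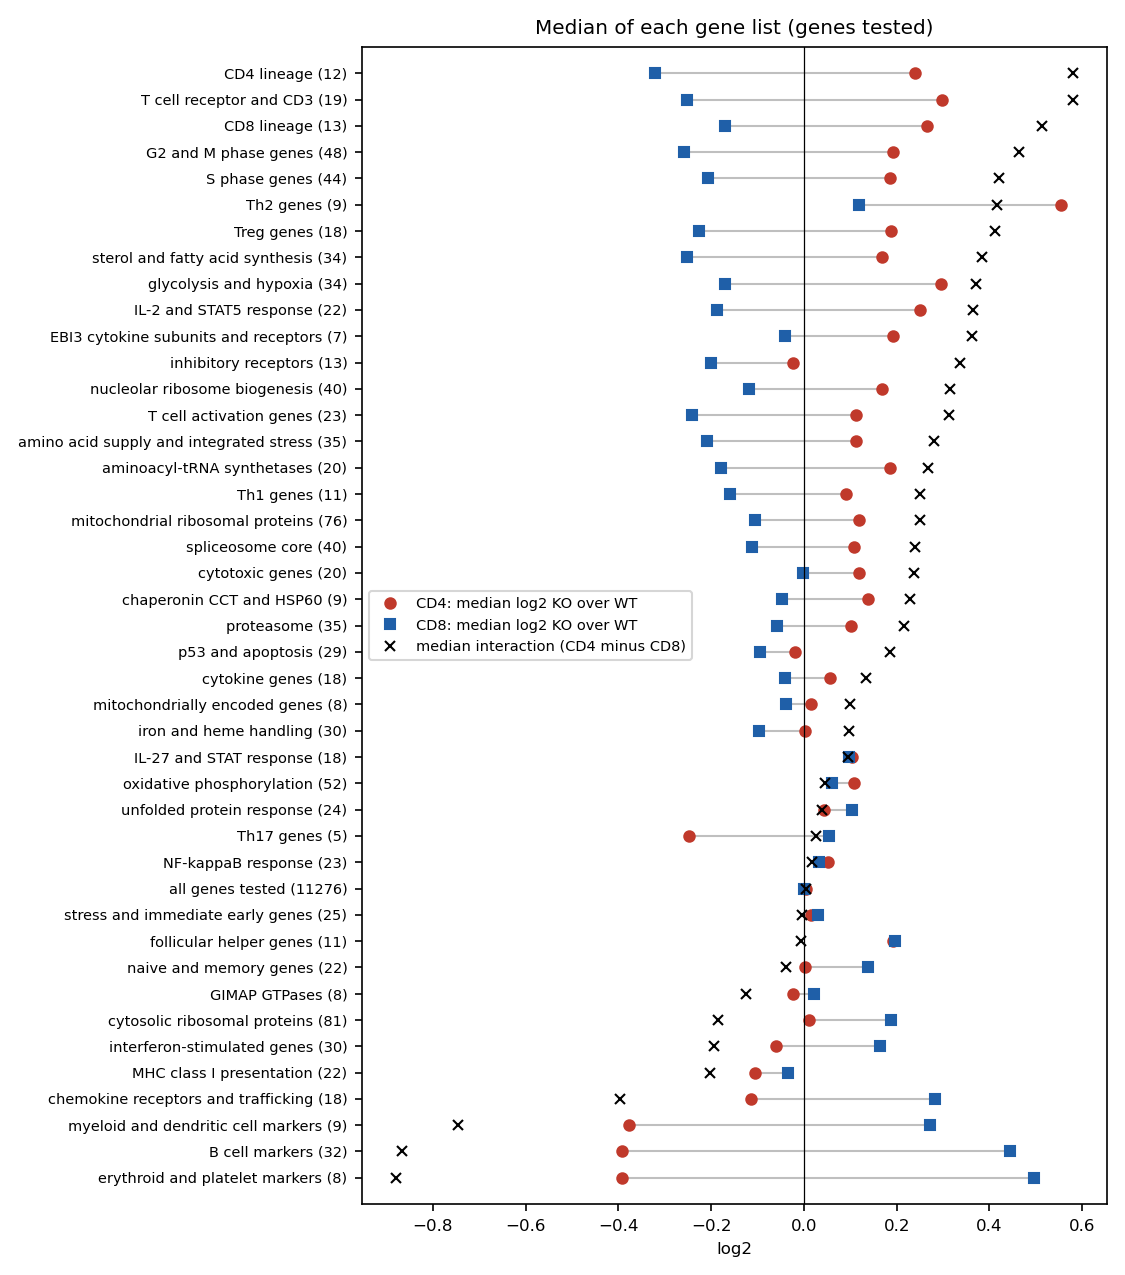
Median log2 KO over WT in CD4 (circles) and in CD8 (squares) and median interaction (crosses) of the gene lists with 5 or more genes tested, whose number stands in brackets, and of all genes tested. CD4 lineage, T cell receptor and cell cycle lists lie at the top with positive CD4 and negative CD8 medians, and erythroid, B cell and myeloid markers at the bottom with the reverse.

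Among genes of T cell signalling, those that respond to IL-2 and STAT5 had positive interactions in 19 of 22, with a median of 0.36 and 9 positive members at an unadjusted p below 0.05. The 1 negative member below that p, named for its sign, was Myc (-1.03 ± 0.42), also a T cell activation gene. Its log2 ratio was -0.63 in CD4 and 0.40 in CD8. Socs2, a feedback inhibitor of cytokine signalling, had 52.8, 44.6 and 41.5 CPM in CD4 KO, against 25.3, 41.7 and 33.5 CPM in CD4 WT. In CD8, Socs2 had 49.1, 52.0 and 23.9 CPM in KO, against 89.5, 80.3 and 52.1 CPM in WT. The CD8 KO values all lay below the CD8 WT values and 1 CD4 KO value lay just below the highest CD4 WT value, for an interaction of 1.28 ± 0.37. Cish, another STAT5-induced inhibitor, had 408, 343 and 362 CPM in CD4 KO, against 224, 372 and 298 CPM in CD4 WT. In CD8, Cish had 281, 307 and 249 CPM in KO, against 355, 332 and 289.6 CPM in WT. Its groups overlapped in both cell types and its interaction was 0.53 ± 0.20. Nfil3, a transcription factor induced by cytokines (0.76 ± 0.26), and Tnfrsf9, the costimulatory receptor 4-1BB (0.75 ± 0.28), were the other positive members named. With the hemoglobin covariate the list's median was -0.02 and Cish stood at -0.013.

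The promoter of Cish is shown because STAT5 is known to act there; the window from 250 bases before to 50 bases after the RefSeq start (GRCm38.p6, chr9:107296409-107296708, plus strand) follows, 5′ to 3′, with capitals for matches to the STAT motif TTCNNNGAA.
Cish: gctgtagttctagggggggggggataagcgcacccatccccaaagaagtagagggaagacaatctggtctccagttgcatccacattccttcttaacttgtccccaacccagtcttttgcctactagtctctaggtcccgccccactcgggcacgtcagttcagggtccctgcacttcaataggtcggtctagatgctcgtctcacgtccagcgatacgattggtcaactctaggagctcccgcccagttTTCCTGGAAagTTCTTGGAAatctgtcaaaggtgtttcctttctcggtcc
It holds 2 such matches, at the annotated start and 11 bases after it, and 8.3% of 32851 RefSeq promoter windows of the same length hold at least 1, on either strand. The windows of Ebi3 and Batf held no match to this motif or to the AP-1 motif TGANTCA (7.81% of windows), both strands searched. Socs2 and Il10 were not among the windows used.

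CD4 lineage genes were positive in 10 of 12, with a median of 0.58. At an unadjusted p below 0.05 stood 5 positive members and 1 negative member. The negative one, St8sia6, had the lowest p of the list, at -1.10 ± 0.33 (-0.23 ± 0.29 with the hemoglobin covariate). Gata3, which directs Th2 cells, had 0.60 ± 0.23 and Tox, needed for CD4 lineage development, 1.22 ± 0.53. Tox was about level in CD4 (log2 -0.05) and lower in KO in CD8 (-1.27), so its interaction lay in CD8. CD8 lineage genes were positive in 11 of 13 with a median of 0.51, but Runx3, which silences Cd4 in CD8 cells, was the 1 member below that p (0.46 ± 0.18). Th2 genes were positive in 7 of 9 with a median of 0.42 (0.55 in CD4 and 0.12 in CD8). Il13, a Th2 cytokine, had 77.8, 50.5 and 53.6 CPM in CD4 KO, against 37.3, 44.7 and 41.6 CPM in CD4 WT. In CD8, Il13 had 76.6, 79.9 and 51.7 CPM in KO, against 85.4, 79.8 and 73.8 CPM in WT. The CD4 groups did not overlap and the CD8 groups did, at an interaction of 0.76 ± 0.25. Th1 genes had a median of 0.25 with 7 of 11 positive, a median that was 0.02 without CD4 WT replicate 1. Tbx21, the Th1 factor T-bet (0.87 ± 0.33), was the 1 Th1 member below that p. Medians were 0.03 for Th17 genes (3 of 5 positive), -0.01 for follicular helper genes (5 of 11) and 0.24 for cytotoxic genes (14 of 20, or 0.10 without CD4 WT replicate 1). The cytotoxic list had no positive and 2 negative members below that p, Ctsc, a protease that activates granzymes (-0.68 ± 0.18), and Lamp2, a lysosomal membrane protein (-0.52 ± 0.21). The summed CPM of the cytotoxic list had a log2 difference of -0.14. Members below that p made up 7.69% of CD8 lineage, 9.09% of Th1 and 10% of cytotoxic genes tested, against 16.2% of all genes. The Th17 and follicular helper medians lay between -0.45 and 0.13 and between -0.51 and 0.17 when single libraries were left out. Cxcr5, the receptor that guides cells to B cell follicles, stood at -0.80 ± 0.29. With the hemoglobin covariate the medians were -0.03 for CD4 lineage, -0.06 for CD8 lineage, 0.22 for Th2, -0.20 for Th1 and -0.10 for cytotoxic genes, and Gata3 (-0.034), Tox (-0.014) and Runx3 (-0.012) turned negative.

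Il10, the anti-inflammatory cytokine that IL-27 is known to induce, was the IL-27 and STAT response gene of lowest p after Batf. It had 5.46, 6.99 and 7.24 CPM in CD4 KO, against 13.4, 9.54 and 10.4 CPM in CD4 WT. In CD8, Il10 had 13.8, 11.04 and 20.5 CPM in KO, against 8.23, 8.29 and 11.1 CPM in WT. The CD4 KO libraries all lay below the CD4 WT libraries, and 1 CD8 KO library lay just below the highest CD8 WT library. The interaction was -1.45 ± 0.41 (95% interval -2.31 to -0.59; unadjusted p = 0.00214, adjusted p = 0.20 in edgeR's quasi-likelihood test), and -0.64 ± 0.48 with the hemoglobin covariate. The list of 18 tested IL-27 and STAT response genes as a whole had 11 positive and 7 negative members, a median of 0.09 and medians of 0.10 in both CD4 and CD8. Of these 18, 5 positive and 3 negative members had an unadjusted p below 0.05, or 44.4% against 16.2% of all genes. Tbx21, also known to be induced by IL-27, ran opposite to Il10 (0.87 ± 0.33, and 0.41 ± 0.37 with the hemoglobin covariate). Batf was positive too (1.002 ± 0.22). Irf1, an interferon-induced transcription factor, stood at -0.58 ± 0.23, and at 0.10 with the hemoglobin covariate. The 30 interferon-stimulated genes tested were negative in 19 with a median of -0.19 (0.06 with the covariate). Of these 30, 3 negative members and 1 positive member had an unadjusted p below 0.05, or 13.3% against 16.2% of all genes. Samd9l, an interferon-induced restriction factor outside that list, stood at -1.01 ± 0.24.

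Receptors and regulators varied more widely. Ccr4, a chemokine receptor of Th2 and regulatory cells, had 51.4, 36.5 and 48.3 CPM in CD4 KO, against 13.4, 39.7 and 33.5 CPM in CD4 WT. In CD8, Ccr4 had 22.1, 21.02 and 22.9 CPM in KO, against 37.6, 36.3 and 30.3 CPM in WT. Its CD8 groups were apart and its CD4 groups overlapped in 1 library of each, at an interaction of 1.26 ± 0.35, whereas the 18 chemokine receptor and trafficking genes as a list had a median of -0.40 with 12 negative. Among them S1pr1, which lets cells leave lymphoid tissue, had -0.82 ± 0.30. The 22 naive and memory genes tested had a median of -0.04 with 11 positive, and Klf2, a member that maintains S1pr1, had -0.82 ± 0.29. Treg genes were positive in 10 of 18 (median 0.41), inhibitory receptors in 9 of 13 (0.34), T cell activation genes in 18 of 23 (0.31) and cytokine genes in 11 of 18 (0.13). Without CD4 WT replicate 1 these 4 medians were 0.25, 0.15, 0.21 and 0.01, without CD4 KO replicate 1 the Treg median was 0.24, and with the hemoglobin covariate they were -0.12, -0.10, -0.08 and -0.24. Ctla4, an inhibitory receptor (1.001 ± 0.38), Tnfrsf4, the costimulatory receptor OX40 (0.84 ± 0.32), Tnfsf8, the ligand of CD30 (0.99 ± 0.26), Tnfsf10, the death ligand TRAIL (-1.17 ± 0.45), and Btla, an inhibitory receptor shared with B cells (-0.66 ± 0.22), were named from these. With the hemoglobin covariate Ctla4 had 0.00 ± 0.28, Tnfsf8 0.38 ± 0.26, Ccr4 0.54 ± 0.34, Tnfsf10 -1.89 ± 0.49, S1pr1 -0.012 ± 0.21 and Klf2 0.014 ± 0.15.

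The remaining lists lay near the median of all genes or split in sign. Members with an unadjusted p below 0.05 made up 41.7% of unfolded protein response genes (4 higher, 6 lower) and 40.9% of MHC class I genes (3 and 6). They made up 36% of stress and immediate early genes (5 and 4), against 16.2% of all genes. Shares were 16.7% for iron and heme, 17.2% for p53, 13.0% for NF-kappaB and 12.5% for GIMAP genes. Of 3 sex-linked genes tested, 1 was below that p, Ddx3y (-0.88 ± 0.41). The sex-linked median lay between -0.72 and -0.43 when single libraries were left out. MHC class I presentation genes had a median of -0.20 with 14 of 22 negative (-0.08 without CD4 KO replicate 3 and with the hemoglobin covariate), among them B2m, the class I light chain (-0.35 ± 0.14). Iron and heme handling genes had one of 0.10 with 17 of 30 positive. The iron stores Fth1 (-0.73 ± 0.19) and Ftl1 (-0.82 ± 0.26) and the bilirubin enzyme Blvrb (-1.14 ± 0.30) were negative, and Fth1 and Ftl1 have pseudogenes. Genes of the p53 response and apoptosis had one of 0.19 (18 of 29 positive; 0.03 without CD4 WT replicate 1 and 0.00 with the covariate), including Cdkn1a, the cell cycle inhibitor p21 (0.76 ± 0.27), and Mcl1, a survival factor (-0.60 ± 0.19). The unfolded protein response (0.04, 13 of 24 positive), NF-kappaB response (0.02, 12 of 23, with the inhibitor gene Nfkbib at 0.54 ± 0.16), stress and immediate early genes (0.00, 12 of 25), GIMAP GTPases (-0.13, 3 of 8) and sex-linked genes (-0.58, 1 of 3) completed the set, and of these the unfolded protein response, NF-kappaB, stress and GIMAP medians turned sign with the covariate.

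Among genes of mean log2 CPM 4 or more, the 15 of lowest unadjusted p with a positive interaction were led by Smarcc1, a core subunit of the BAF chromatin remodelling complex (ENSMUSG00000032481, chr9:110117708-110240178). It had 392.5, 316 and 366 CPM in CD4 KO, against 278, 305 and 269 CPM in CD4 WT. In CD8, Smarcc1 had 248, 269 and 266 CPM in KO, against 366, 389 and 307 CPM in WT. KO and WT libraries did not overlap in either cell type, at log2 ratios of 0.33 and -0.44 and an interaction of 0.77 ± 0.15 (95% interval 0.45 to 1.09; unadjusted p = 6.11e-05, adjusted p = 0.20, edgeR's quasi-likelihood test). Batf, an AP-1 factor that acts with IRF4 in effector T cells (ENSMUSG00000034266, chr12:85686669-85709087), had 59.1, 57.0 and 62.3 CPM in CD4 KO, against 33.5, 37.2 and 43.9 CPM in CD4 WT. In CD8, Batf had 44.7, 56.8 and 39.5 CPM in KO, against 61.7, 62.2 and 58.1 CPM in WT. Its groups were also apart in both, at log2 ratios of 0.63 and -0.37 and an interaction of 1.002 ± 0.22 (0.55 to 1.45; unadjusted p = 0.000152). Jak3, the kinase of the common gamma chain receptors, had 96.4, 94.6 and 85.9 CPM in CD4 KO, against 73.8, 73.8 and 60.6 CPM in CD4 WT. In CD8, Jak3 had 67.3, 77.8 and 53.7 CPM in KO, against 82.3, 92.2 and 84.4 CPM in WT. Both cell types were again without overlap, at an interaction of 0.80 ± 0.20.

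Insl3, a hormone gene of the testis, overlaps Jak3 on the same strand and had a like interaction (0.92 ± 0.23), so the counts of the 2 genes cannot be told apart with certainty. Among the remaining positive genes were Tonsl, which acts at stalled forks (1.24 ± 0.28, sharing its strand with Vps28) and Rpa2, given above. Others were Tubg1, the gamma tubulin that nucleates microtubules (1.09 ± 0.25), Slc2a3 and Psmc1, given above, Supt6, a histone chaperone of transcription (0.75 ± 0.18), Bag4, a regulator of HSP70 (0.71 ± 0.18), Frg1 (0.74 ± 0.18), Bola1, a mitochondrial protein (0.97 ± 0.25), and Vti1a, a SNARE of vesicle fusion (0.89 ± 0.23). Bola1 was level in CD4 (log2 0.01) and lower in KO in CD8 (-0.97), so its interaction lay in CD8. In 8 of these 15 genes, with Jak3 and Insl3 counted separately, KO and WT libraries were apart in both cell types. The share over all genes in that direction was 0.692%, but ranking by p on the same libraries favours such separation.

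The 15 genes of lowest p with a negative interaction were led by Fam49a, a regulator of the actin cytoskeleton (ENSMUSG00000020589, chr12:12262139-12380965). It had 18.2, 22.6 and 15.9 CPM in CD4 KO, against 40.3, 30.1 and 26.6 CPM in CD4 WT. In CD8, Fam49a had 41.4, 23.7 and 40.5 CPM in KO, against 15.9, 17.6 and 26.8 CPM in WT. The CD4 groups were apart and 1 CD8 KO library lay below the highest CD8 WT library, at an interaction of -1.56 ± 0.35 (95% interval -2.29 to -0.84; unadjusted p = 0.000222, adjusted p = 0.20, edgeR's quasi-likelihood test). Plac8, a small cysteine-rich protein abundant in leukocytes, had 155, 213 and 154 CPM in CD4 KO, against 294, 213 and 251 CPM in CD4 WT. In CD8, Plac8 had 269, 272 and 341 CPM in KO, against 175, 152 and 254 CPM in WT. Its CD8 groups were apart and its CD4 groups met at 213 CPM, at an interaction of -1.14 ± 0.26. Swap70, a signalling protein of B cell activation (-0.91 ± 0.23), and Pik3ap1, the B cell adaptor BCAP (-0.81 ± 0.20), are known best from B cells. Swap70 was listed here among Treg genes. The summed B cell markers differed in the same direction, and the part of B cells in these 2 interactions was not tested. Swap70 and Pik3ap1 had -0.32 ± 0.20 and -0.36 ± 0.20 with the hemoglobin covariate. On the 8 libraries without those highest in B cell markers they had -1.03 and -0.86.

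Also in this set were H2-Q6, a nonclassical class I gene with near-identical neighbours (-1.05 ± 0.24), Rab30, a Golgi GTPase (-1.59 ± 0.38), Neto2 (-1.51 ± 0.36), Wipf3, an actin regulator (-1.26 ± 0.33), Tmed8 (-1.24 ± 0.30), Man1c1, a Golgi mannosidase (-1.21 ± 0.31), Ppm1l, a protein phosphatase (-0.97 ± 0.25), Cyfip1, of the WAVE complex of actin branching (-0.90 ± 0.24), and Sbf2 (-0.84 ± 0.21), besides Samd9l and Rps27, given above. In 5 of the 15 the KO and WT libraries were apart in both cell types, against 0.621% of all genes in that direction, again favoured by the ranking. With the hemoglobin covariate all 30 genes kept their sign, 17 had an unadjusted p below 0.05, and the part of the estimate that remained lay between 0.32 and 1.11 of it with a median of 0.53. Tonsl (1.37 ± 0.37), Vti1a (0.89 ± 0.30) and Bag4 (0.69 ± 0.22) stayed close to their estimates without it. On the 8 libraries left without those highest in B cell markers all 30 kept their sign and an unadjusted p below 0.05. The 30 were chosen by low p in the 12 libraries, which include these 8. Kept signs and low p in both of these fits are therefore favoured by that choice and are no independent check.

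**Figure D5:**
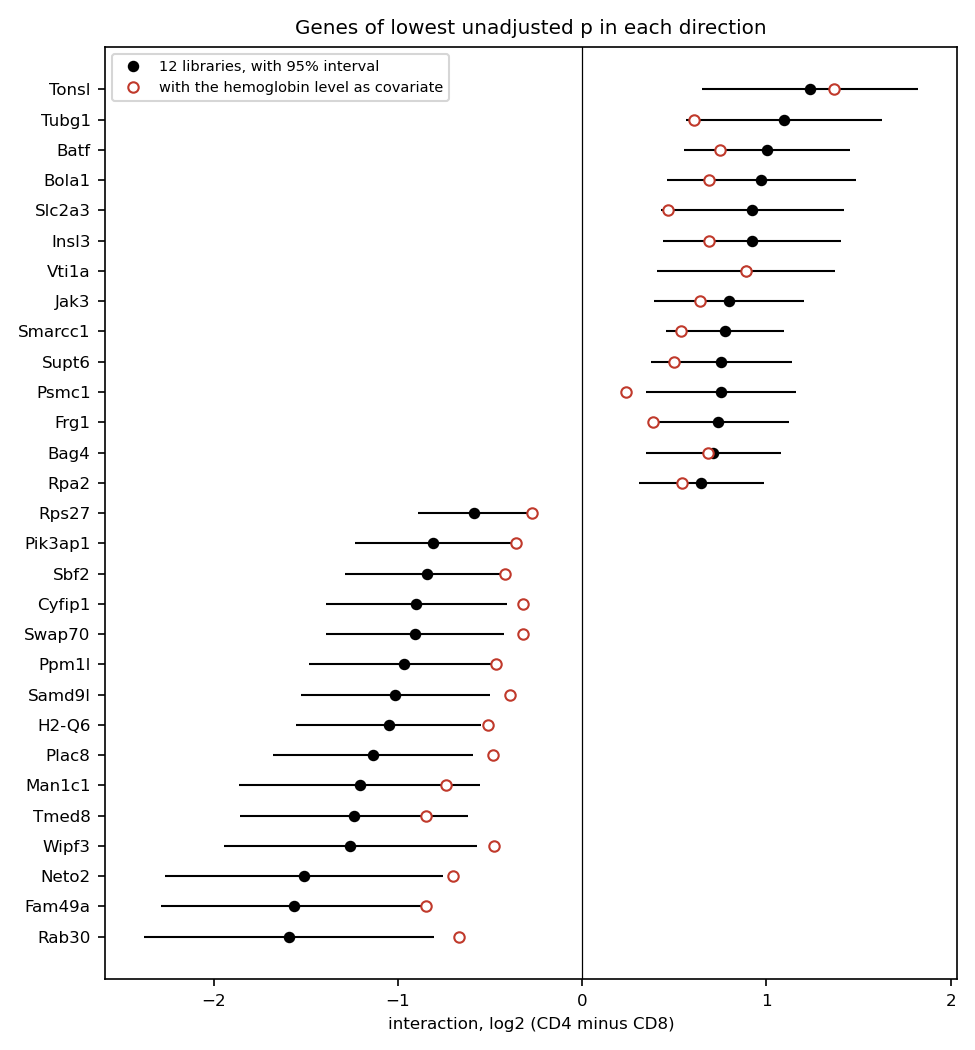
Interaction (log2, CD4 minus CD8) of the genes named among the 15 of lowest unadjusted p in each direction: black points with 95% intervals are the fit on 12 libraries, open red points the fit with the hemoglobin level as covariate. No black interval reaches 0, since the genes were ranked by p, and the red points lie nearer to 0 for most genes, Tonsl being farther.

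A count of separation that uses no fitted spread gave 78 genes (0.692%) whose 3 KO libraries all lay above the WT libraries in CD4 and below them in CD8, and 70 genes (0.621%) with the reverse. The 10 of largest interaction in the first direction were Tonsl, Tubg1, Batf, Insl3 and Vti1a, given above, with Cenpp, a centromere protein, Brca1, of homologous recombination (0.91 ± 0.29), Faap100, of the Fanconi anemia core complex (0.89 ± 0.25), Snap47 (0.88 ± 0.25) and Ddx31, a nucleolar helicase (0.87 ± 0.29). Cenpp had 16.4, 22.6 and 18.8 CPM in CD4 KO, against 11.2, 15.1 and 12.1 CPM in CD4 WT. In CD8, Cenpp had 14.3, 16.3 and 11.2 CPM in KO, against 25.2, 24.3 and 16.7 CPM in WT, for an interaction of 1.22 ± 0.34. In the other direction they were Man1c1, Tmed8, Ppm1l and Sbf2 with Jun, Tbc1d25, a Rab GTPase activator of autophagy (-1.07 ± 0.29), Bend5 (-0.89 ± 0.27), Abca7, a lipid transporter (-0.87 ± 0.28), Invs, a protein of primary cilia (-0.84 ± 0.30), and Abhd2, a lipid hydrolase (-0.82 ± 0.26). Jun, the AP-1 subunit with which BATF can pair, had 72.3, 82.7 and 73.9 CPM in CD4 KO, against 137, 88.4 and 87.8 CPM in CD4 WT. In CD8, Jun had 104, 92.0 and 117 CPM in KO, against 64.8, 71.5 and 91.5 CPM in WT, for an interaction of -0.89 ± 0.24. Batf and Jun thus lay in opposite directions in both cell types. With the hemoglobin covariate the interaction was 0.75 ± 0.26 for Batf and -0.26 ± 0.20 for Jun. Other AP-1 genes, named after their values were seen, were positive like Batf: Jund (0.66 ± 0.18), Fosl2 (0.59 ± 0.24) and Junb (0.37 ± 0.17). Opposite signs of Batf and Jun are therefore not a trait of the AP-1 family here.

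A few genes differed between KO and WT alike in CD4 and CD8, and Slc7a5 and Maf, chosen after their values were seen, are shown for contrast. Slc7a5, the large neutral amino acid transporter that feeds mTORC1 in activated T cells, had 45.0, 44.1 and 27.5 CPM in CD4 KO, against 82.0, 124 and 133 CPM in CD4 WT. In CD8, Slc7a5 had 41.4, 63.1 and 57.1 CPM in KO, against 153, 84.9 and 155 CPM in WT. KO and WT libraries were fully apart in both cell types, with KO the lower, at log2 ratios of -1.55 in CD4 and -1.28 in CD8. The interaction was -0.27 ± 0.37, with a 95% interval of -1.06 to 0.52 that includes 0 and sizeable differences on either side. Maf, a factor of Th2, follicular helper and Il10-producing cells, had 26.4, 33.9 and 30.4 CPM in CD4 KO, against 10.4, 15.1 and 16.8 CPM in CD4 WT. In CD8, Maf had 12.1, 25.8 and 14.1 CPM in KO, against 8.75, 8.81 and 15.2 CPM in WT. Its CD4 groups were apart and its CD8 groups overlapped, at log2 ratios of 1.07 and 0.66 and an interaction of 0.40 (95% interval -0.45 to 1.26). Il10 and Maf therefore had opposite signs of the KO-WT difference in CD4 and the same sign in CD8.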

How the data were processed

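Spleen T cells were profiled as 3' tag RNA-seq (QuantSeq FWD with UMIs, per the labels' protocols). The deposited table holds raw counts per Ensembl gene. The tools named in the submitters' processing notes are Subread 2.0.0, featureCounts, UMI-tools 1.0.0, STAR 2.5.3a, cutadapt 2.10 and FastQC, with the build GRCm38 (mm10). The annotation release is not given in the sources used here, nor is the strand setting or the handling of multiply aligned reads. For this reason near-identical and overlapping genes are uncertain, and a 3' tag reads only the transcript's end. Overlaps on the opposite strand, with counts over the 12 libraries, include Alas2 (200) with Apex2 (267) and Invs (401) with Tex10 (1366). Others are Nfkbib (2936) with Sirt2 (2888), Cenpp (392) with Ippk (357) and Smarcc1 (7234) with Dhx30 (2001). Ftl1 (3408) shares its strand with Gm22133 (3361). Symbols came from GENCODE M21, in which 55141 of 55487 genes matched, and promoter sequences from RefSeq (GRCm38.p6).

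The 12 CD4 and CD8 libraries were grouped by their labels. Low genes were removed by filterByExpr (minimum count 10), and the rest were scaled by TMM and fitted with robust glmQLFit on 4 group means, with 8 residual degrees of freedom and a common dispersion of 0.0121 (edgeR 4.0.16, R 4.3.3). The interaction p-values of glmQLFTest were adjusted over 11276 genes by Benjamini-Hochberg, with a threshold of 0.05. Treg libraries were left out because earlier results of these data had shown replicate pairs among them that repeat each other within sampling noise, which would narrow a shared spread. Within-group pairs used here differed by 1.50 to 5.30 chi-square units per gene. Log2 ratios, SEs and 95% intervals come from the fit, and CPM use TMM-scaled library sizes. The 44 gene lists, the tests and the genes to name were chosen with earlier results of these data known, and lists are described by counts and medians without a test. Named are, besides Ebi3 and 5 lineage genes (Foxp3, Zbtb7b, Cd4, Cd8b1, Cd8a), the 15 genes of lowest unadjusted p per direction among those at a mean log2 CPM of 4 or above (predicted genes and pseudogenes passed over), the 10 oppositely separated genes of largest interaction per direction, and up to 4 members of a list by lowest p. Some of the genes so picked are not reported here. Alternatives were other scalings, no filter, all 18 libraries, DESeq2 1.42.0, voom in limma 3.58.1, a replicate block, the hemoglobin covariate, and leaving out libraries. The procedure was tested on simulated data.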

Additional observations from a re-analysis of the deposited data

How the results depend on the processing

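No gene was called with all 18 libraries, with 2 other scalings, with either limma-voom fit, with the hemoglobin covariate or with the replicate block. Calls numbered 5 with DESeq2 and 507 (216 higher and 291 lower of 24381 genes) with no filter on low counts, where Ebi3 had -0.94 and an adjusted p of 0.038 in edgeR's test. They numbered 409 (134 higher and 275 lower) without the library of highest B cell markers in each group, and 0 to 175 when single libraries were left out, the 175 without CD8 WT replicate 3; the causes were not tested. The number of genes with an unadjusted interaction p under 0.05 was 492 with the covariate, against 1828, and 1157 (without CD8 KO replicate 3) to 2500 (without CD8 WT replicate 3) when single libraries were left out. The Ebi3 interaction ranged from -1.07 to -0.75 when single libraries were left out and was -0.42 with the covariate and -0.72 on the 8 libraries. With the covariate the sign turned for Gata3 (-0.034), Zbtb7b (-0.12), Tox (-0.014), Runx3 (-0.012), Cd8a (-0.14), Cish (-0.013), Hbb-bs (0.091, itself part of the covariate), Klf2 (0.014), Irf1 (0.10) and Il6st (0.063). On the 8 libraries it turned for Cd8a (-0.14) and Maf (-0.29). Medians of 10 of 44 lists changed sign when 1 library was left out; those of NK markers (-0.72) and EBI3 cytokine genes (0.36) were the only such medians above 0.10 in size. Replicate numbers did not pair the libraries: same-numbered libraries had correlations of their deviations from group means from -0.50 to 0.48, 3 of 18 of them over 0.1, and 4 of 12 libraries correlated best with their own number; the replicate block gave 1714 genes at an unadjusted p below 0.05 and 0 calls. Depth limits genes near 1.36 to 2.24 CPM.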
